A study of Mus musculus with 4 samples.

Results

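Hand2 and 9 other transcription factors of the cardiac mesenchyme (Hand1, Gata6, Tbx20, Tbx5, Tbx18, Mef2c, Isl1, Nkx2-5 and Srf) were examined in bulk RNA-seq of mouse embryonic fibroblasts (MEFs) undergoing reprogramming to induced hepatocytes. These genes were selected by symbol and make up 10 of the 55397 genes listed. The MEFs were Prox1 fl/fl, so that both Prox1 alleles could be recombined by Cre, and had been prepared from the limbs of pooled C57BL/6J embryos at E13.5. One group received lentivirus encoding 4in1, the hepatocyte-inducing factors, together with cre-GFP and is labelled Prox1 KO, and the control group received 4in1 with the non-functional delta Cre and GFP. Floxed alleles, 4in1 and GFP were thus common to both groups, and total RNA was collected after 14 days and sequenced as 2 libraries per group. Whether the replicate number stands for a MEF line or a culture day is not given in the labels. Xist RNA, reported below, was abundant in replicate 1 and nearly absent in replicate 2 of both groups. The replicate numbers thus did not hold the same cell material. The p-values measure only the spread between these libraries.

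HAND proteins are basic helix-loop-helix factors that bind E-boxes as dimers with E-proteins, GATA6 is a zinc-finger factor, TBX5, TBX18 and TBX20 are T-box factors, MEF2C and SRF are MADS-box factors, and ISL1 and NKX2-5 carry homeodomains. In the embryo they act together in the heart fields, the outflow tract, the epicardium and the cushions. Some of them, as part of factor combinations, can move fibroblasts towards a cardiomyocyte programme. Several of them also pattern other mesenchyme: HAND2 sets the posterior side of the limb bud, TBX5 is needed for the forelimb, and SRF with its myocardin-family partners drives contractile genes in smooth muscle and myofibroblasts.

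The values are normalized counts, that is, reads per gene divided by a size factor for each library. The libraries held between 42469031 and 48524008 reads on genes, so that Hand2 rests on 1736 to 2783 reads and Hand1 on 13 to 34. The 15809 genes averaging 10 or more normalized counts entered limma's test as log2(normalized counts + 1), with the replicate number as a block and a threshold of 0.05 on the adjusted p. Fold changes refer to this scale, which understates changes of low genes. In replicates 1 and 2, Prox1 itself had 72.7 and 61.6 normalized counts in the KO-labelled libraries and 60.6 and 25.5 in the controls (log2 fold change 0.75, standard error 0.27, adjusted p = 0.0936). The targeted gene was therefore not lower under the KO label, although a count over the whole gene keeps reads of exons outside a deletion, and every direction given here rests on the labels.

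Hand2 and Tbx20 were higher in the KO-labelled libraries in both replicate pairs, by 1.30 and 1.44 times in the ratio of group means. Of the 10 factors, 9 passed the filter on low values, and these 2 passed the test, both upwards, while 0 fell. The 2 called genes are 22.2% of the 9 tested factors, against 11.4% of all tested genes called in either direction, 5.09% called higher and 6.29% called lower. The median log2 fold change of the 9 was 0.06, against -0.0022 over all tested genes. Without the replicate block 0 of the 9 passed in limma, and 1 of them (Hand2) had an unadjusted p under 0.05.

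**Figure D1:**
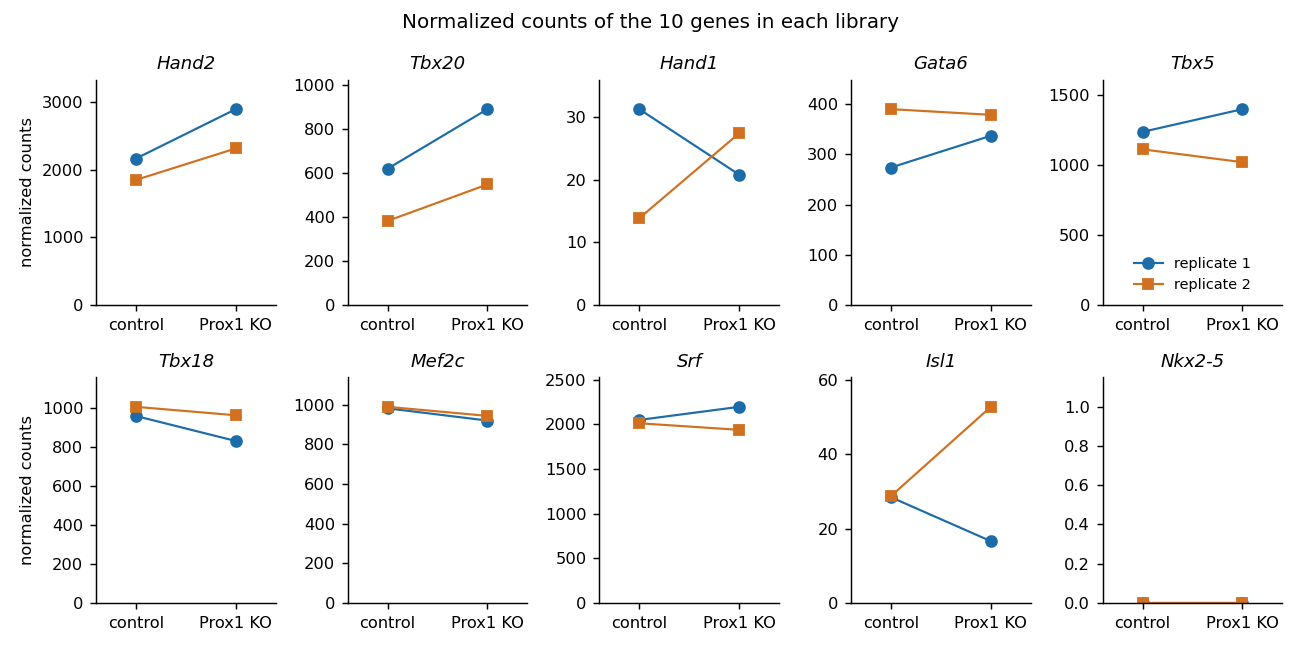
Normalized counts (y axis, linear and starting at 0, scaled separately for each gene) of the 10 factors in the control library and the KO-labelled library (x axis), with a line joining the libraries of replicate 1 (circles) and of replicate 2 (squares). For Hand2 and Tbx20 both lines rise, Tbx18 and Mef2c fall slightly in both, the lines of Hand1, Gata6, Tbx5, Srf and Isl1 run in opposite directions, and Nkx2-5 is at 0 throughout.

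Hand2 (ENSMUSG00000038193) lies on chromosome 8 of GRCm38 from 57320983 to 57324633 on the plus strand. The 250 bases before its RefSeq start (GRCm38.p6, chr8:57320733-57320982, plus strand) are shown with that of Tbx20 (chr9:24774304-24774553, minus strand), since these were the called factors. Capitals mark matches to the E-box CANNTG, bound by HAND dimers, to GATA or its complement TATC, to the T-box motif AGGTGT, and to the CArG box bound by SRF, each searched on both strands with no match overlapping another.
Hand2 promoter: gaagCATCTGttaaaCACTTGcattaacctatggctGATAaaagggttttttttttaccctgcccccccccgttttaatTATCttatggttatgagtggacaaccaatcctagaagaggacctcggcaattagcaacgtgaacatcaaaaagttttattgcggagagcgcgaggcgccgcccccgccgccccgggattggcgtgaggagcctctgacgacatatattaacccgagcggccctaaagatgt
Tbx20 promoter: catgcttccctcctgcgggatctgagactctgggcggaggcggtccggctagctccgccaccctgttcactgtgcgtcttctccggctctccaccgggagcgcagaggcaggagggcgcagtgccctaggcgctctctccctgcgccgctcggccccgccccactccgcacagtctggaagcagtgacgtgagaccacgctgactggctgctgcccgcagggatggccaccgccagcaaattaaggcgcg
The Hand2 window holds 2 E-boxes, CATCTG from -246 to -241 and CACTTG from -235 to -230, and 2 GATA matches from -214 to -211 and from -171 to -168, counted from the start. It has no match to the T-box motif or the CArG box, and the Tbx20 window has no match to any of the 4 motifs. Among 32851 RefSeq promoters of the same length, 66.2% hold an E-box, 53.6% a GATA match, 11.8% a T-box motif and 1.47% a CArG box, so the Hand2 matches are of common kinds. The Hand2 window is 49.2% G or C and the Tbx20 window 68.8%, against a median of 52.4%. A match describes the letters and does not show that a factor binds there.

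In the KO-labelled libraries, Hand2 had 2892 normalized counts in replicate 1 and 2313 in replicate 2, and in the controls 2163 and 1848. The lower of the KO-labelled libraries was thus above the higher control, and the groups did not overlap. With 2 libraries per group such an order carries little weight, since an exact permutation test that ignores the pairs gives it a two-sided p of 0.333. The means were 2602 ± 410 and 2005 ± 223 (SD, n = 2 each), and the log2 fold change was 0.37 (standard error 0.05, 95% interval 0.26 to 0.48, adjusted p = 0.000205 in limma). The rise was 0.42 in pair 1 and 0.32 in pair 2 on the log2 scale. On the recovered reads and with the same block, edgeR gave an adjusted p of 0.000132 and DESeq2 one of 0.00283, whereas limma without the block gave 0.392. As RNA came from whole cultures, more cells expressing Hand2 and more Hand2 RNA per cell cannot be told apart.

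Hand2os1, a long non-coding RNA transcribed from the opposite strand, lies on chromosome 8 from 57281117 to 57324233 and overlaps the exons of Hand2. Of the 100-base windows of the longest Hand2 transcript, 11.7% also occur in transcripts of other genes, and the strand setting of the counting is not given in the sources used here, so a part of the reads could belong to either gene. Hand2os1 had 344.0 and 252.2 normalized counts in the KO-labelled libraries and 281.8 and 228.9 in the controls, far below Hand2, and its groups overlapped. It did not pass the test (log2 fold change 0.21, standard error 0.12, adjusted p = 0.283).

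Tbx20 (ENSMUSG00000031965; chromosome 9, 24718138 to 24774303, minus strand), a T-box factor of the working myocardium and the endocardial cushions, had the largest fold change of the 9. It had 892 normalized counts in replicate 1 and 549 in replicate 2 of the KO-labelled libraries, against 621 and 383 in the controls. The higher control was above the lower KO-labelled library, so the groups overlapped, and the difference stood within each pair. The means were 720 ± 242 and 502 ± 168 (SD, n = 2 each), and the log2 fold change was 0.52 (standard error 0.08, 95% interval 0.35 to 0.69, adjusted p = 0.000581 in limma). Both pairs gave 0.52. The adjusted p was 0.000566 in edgeR, 0.0337 in DESeq2 and 0.552 in limma without the block. The long non-coding Gm29824, which starts 2164 bases away on the opposite strand, was nearly silent, with 0 to 1.04 normalized counts.

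The remaining T-box factors did not pass the test. Tbx5 (ENSMUSG00000018263; chromosome 5, 119832668 to 119885219, plus strand), required for forelimb and atrial development, had 1402 and 1022 normalized counts in the KO-labelled libraries and 1239 and 1115 in the controls. The log2 difference was 0.18 in pair 1 and -0.12 in pair 2, and the fitted fold change was 0.03 (95% interval -0.13 to 0.18, adjusted p = 0.868). Tbx18 (ENSMUSG00000032419; chromosome 9, 87702800 to 87731260, minus strand), a factor of the epicardium and the sinus horns, had 832 and 965 normalized counts against 961 and 1008. Its groups overlapped only narrowly and both pairs were lower, with a log2 fold change of -0.14 (95% interval -0.28 to 0.01, adjusted p = 0.248).

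Non-coding genes lie next to both. Gm43050, which starts 748 bases from Tbx5 on the opposite strand, had 64.5 to 95.8 normalized counts and a log2 fold change of -0.31 (adjusted p = 0.411). D030062O11Rik overlaps exons of Tbx18, of whose windows 16.1% occur in other transcripts, and had 19.7 to 30.3 normalized counts (log2 fold change -0.38, adjusted p = 0.530).

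Mef2c and Srf, the MADS-box factors, were nearly level between the groups. Mef2c (ENSMUSG00000005583; chromosome 13, 83504034 to 83667080, plus strand), a factor of the second heart field and of muscle, had 920 and 943 normalized counts in the KO-labelled libraries and 981 and 989 in the controls. Both KO-labelled libraries were below both controls, but the log2 fold change of -0.08 (95% interval -0.22 to 0.06, adjusted p = 0.501) did not pass the test. Srf (ENSMUSG00000015605; chromosome 17, 46548329 to 46556175, minus strand) had 2195 and 1937 against 2048 and 2011 normalized counts, and its groups overlapped. Its log2 fold change was 0.02 (95% interval -0.09 to 0.14, adjusted p = 0.845). Within the Srf gene lies Mir6976, listed at 0 to 2.75 normalized counts, while the overlapping Gm26904 was not analysed here.

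Gata6, Hand1 and Isl1 had differences of opposite sign in the pairs, as had Tbx5 and Srf. Gata6 (ENSMUSG00000005836; chromosome 18, 11052064 to 11085635, plus strand), a factor of the outflow tract and of endoderm, had 337 and 378 normalized counts in the KO-labelled libraries and 274 and 390 in the controls (log2 fold change 0.13, 95% interval -0.11 to 0.37, adjusted p = 0.538). The non-coding 1010001N08Rik, which overlaps its exons, had 11.4 to 17.0 normalized counts. Hand1 (ENSMUSG00000037335; chromosome 11, 57828705 to 57832818, minus strand), the paralog of Hand2 in the left ventricle and the extraembryonic mesoderm, was low, with 20.8 and 27.4 against 31.2 and 13.8 normalized counts, from 13 to 34 reads. Its interval ran from -0.65 to 1.02 around a log2 fold change of 0.19 (adjusted p = 0.828), so that a change of the size seen in Hand2 was not detectable at this depth. Isl1 (ENSMUSG00000042258; chromosome 13, 116298281 to 116309689, minus strand), a marker of second heart field progenitors, had 16.6 and 52.8 against 28.5 and 28.7 normalized counts, with a log2 fold change of 0.06 (95% interval -0.72 to 0.84, adjusted p = 0.950). Its highest and lowest values were both in the KO-labelled libraries.

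Nkx2-5 (ENSMUSG00000015579; chromosome 17, 26838664 to 26845009, minus strand), the homeodomain factor of committed cardiac cells, had 0 reads in each of the 4 libraries. A count of 0 allows up to 3 reads, or at most 3.19 normalized counts in a library, and this limit covers counting error only.

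**Figure D2:**
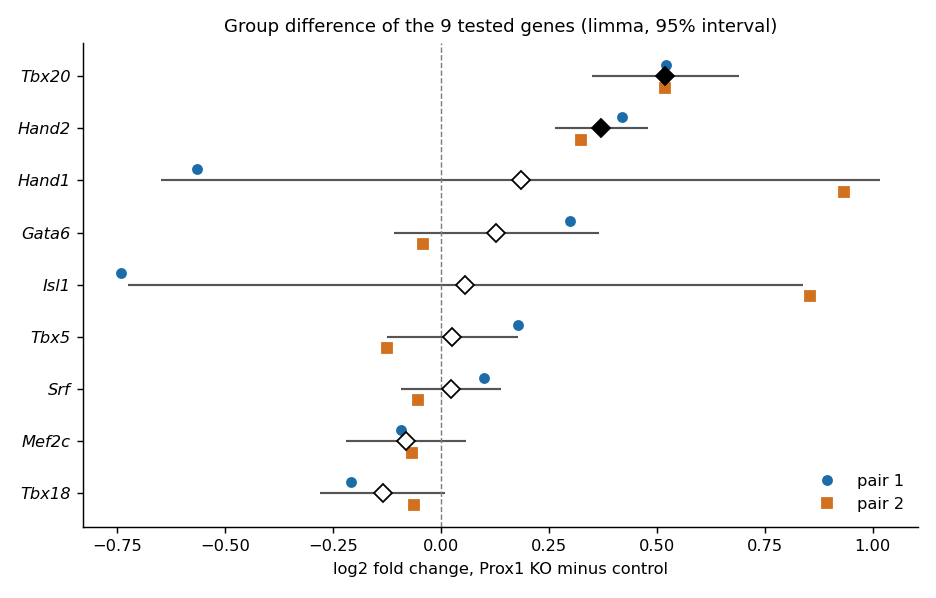
Log2 fold change on the log2(normalized counts + 1) scale (x axis, KO-labelled libraries minus control) of the 9 tested factors (y axis). Diamonds are the limma estimates with their 95% intervals (filled where the adjusted p is under 0.05), circles are pair 1 and squares pair 2, and the intervals of Tbx20 and Hand2 lie above 0 whereas the other 7 include it.

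Between genes, levels were compared as normalized counts per kb of annotated exons. On this scale Hand2 was the highest, at 980 ± 186 (SD over the 4 libraries), followed by Srf at 708 ± 37.4, Tbx5 at 256 ± 35.1 and Tbx18 at 200 ± 16.1. Hand2 ranged from 786 to 1230 per kb and Srf from 670 to 759, without overlap, and the lowest Tbx5 library, at 219 per kb, lay just above the highest Tbx18 library, at 214. On this scale a middle tier held Mef2c at 61.0 ± 2.07, Gata6 at 52.9 ± 8.07 and Tbx20 at 50.9 ± 17.7, whose order does not exceed their spread. The scale divides by the merged exons of all annotated transcripts, 15715 bases for Mef2c, 6508 for Gata6 and 11997 for Tbx20. Their longest transcripts have 6277, 3784 and 9091 bases, so the tier depends on this choice of length, which the SD does not cover. Hand1 at 11.7 ± 3.82 and Isl1 at 8.00 ± 3.83 also overlapped. The cultures thus contained abundant Hand2, Srf, Tbx5 and Tbx18 RNA, low Hand1 and Isl1, and no reads of Nkx2-5.

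**Figure D3:**
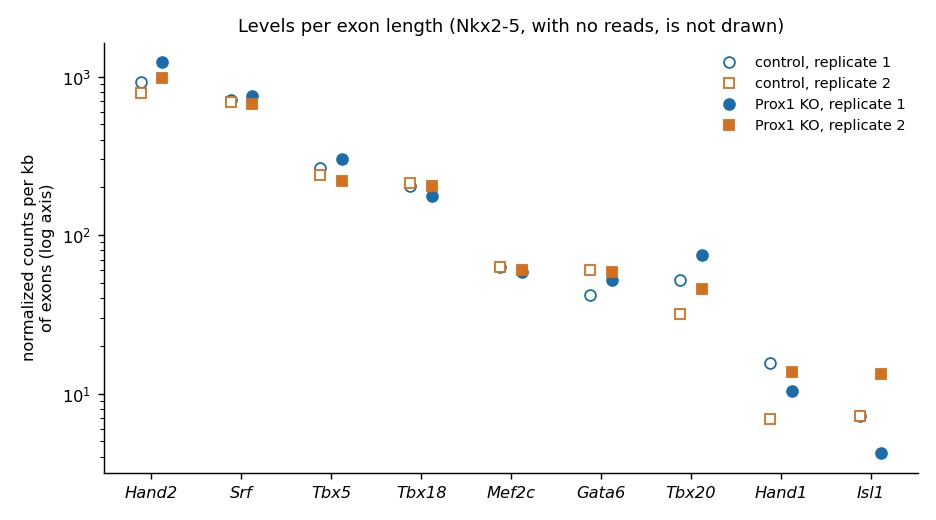
Normalized counts per kb of exons (y axis, log scale) of 9 factors (x axis, in order of their mean) in each library, open symbols for controls, filled for KO-labelled libraries, circles for replicate 1 and squares for replicate 2. Hand2 and Srf lie above 600 per kb in every library, Mef2c, Gata6 and Tbx20 overlap, and Hand1 and Isl1 stay below 16.

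The replicates also differed. Between replicate 2 and replicate 1, 7.88% of all tested genes were called in the same fit, and among the 9 tested factors 3 were (33.3%), each lower in replicate 2. The log2 difference (replicate 2 minus replicate 1) was -0.70 for Tbx20 (standard error 0.08, adjusted p = 3.97e-05), -0.27 for Hand2 (standard error 0.05, adjusted p = 0.00249) and -0.30 for Tbx5 (standard error 0.07, adjusted p = 0.0145). For Tbx20 the replicate difference was larger in size than the group difference, and for Hand2 it was smaller. Isl1 (0.81, adjusted p = 0.232) and Gata6 (0.34, adjusted p = 0.0840) had higher values in replicate 2 without passing the test. Xist, transcribed from the inactive X chromosome, had 13944 to 14495 normalized counts in replicate 1 and 1.06 to 4.89 in replicate 2, and so separated the replicate numbers. Which embryos or lines the numbers stand for is not given.

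**Figure D4:**
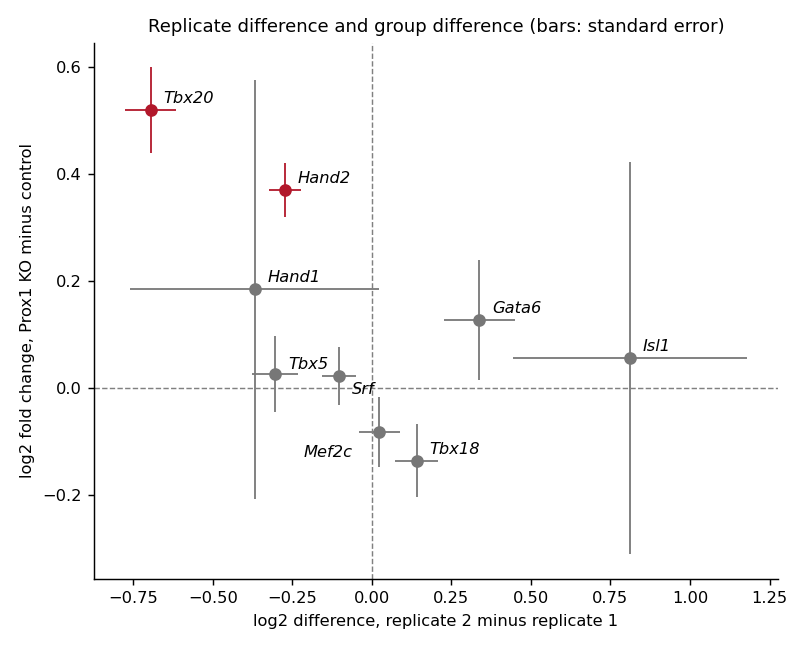
Log2 fold change between the groups (y axis, KO-labelled libraries minus control) against the log2 difference between the replicates (x axis, replicate 2 minus replicate 1) for the 9 tested factors, with standard errors as bars and the called factors of the group comparison in red. Tbx20 and Hand2 are high on the y axis and negative on the x axis, and the other 7 lie between -0.14 and 0.19 on the y axis.

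The profile of Hand2 over the 4 libraries was compared with that of 13943 tested protein-coding genes, by the Euclidean distance between log2 values centred on their means. The 5 nearest were A730049H05Rik (distance 0.0206), Dusp8 (0.0434), Itga6 (0.0470), Klhdc8a (0.0471) and Xk (0.0475). Itga6, an integrin subunit that binds laminin, had log2 fold change 0.41 (adjusted p = 3.63e-05) and Klhdc8a, a kelch-repeat protein, 0.37 (adjusted p = 0.000137). Dusp8, a phosphatase of stress-activated kinases, had 0.33 without passing (adjusted p = 0.0663), as did Xk (0.33, adjusted p = 0.0727) and A730049H05Rik (0.37, adjusted p = 0.605), which had under 24 normalized counts. Likeness over 4 libraries describes these profiles and nothing of shared control.

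Genes that act with these factors were counted from lists drawn up by function. Over 14 lists with 212 entries, 161 entries were tested, of which 22 rose and 30 fell with the KO label. Over all tested genes 11.4% were called, 5.09% higher and 6.29% lower, and the counts of each list below are to be read beside these shares. Without the replicate block 0 of these entries passed in limma, and 42 had an unadjusted p under 0.05. DESeq2 with the block called 23 list entries, 11 higher and 12 lower, so many limma calls named below did not pass there.

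Among 33 other transcription factors of the heart fields and chambers, 26 were tested, 1 rose and 3 fell, with a median log2 fold change of 0.03. Irx1, an Iroquois homeodomain factor, rose from 2385 and 2212 normalized counts in the controls to 2794 and 2622 (0.24, adjusted p = 0.00435). Casz1, a zinc-finger factor of heart and vessels, fell by 0.96 on the log2 scale (adjusted p = 0.0184), with 42.6 and 28.3 against 80.8 and 58.5 normalized counts. Hopx, a homeodomain-only protein that does not bind DNA and modulates SRF, fell by 0.30 (adjusted p = 0.0012), and Eya1, a phosphatase and transcriptional cofactor, also by 0.30 (adjusted p = 0.0156). Genes of early cardiac commitment were nearly absent, with 0 reads of Mesp1 and at most 1 read per library of Gata5, Irx4 and Nkx2-6.

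Of 21 partners and cofactors, which include the E-proteins that dimerize with HAND factors, the FOG proteins, the myocardin family and class II histone deacetylases, 20 were tested, 2 rose and 0 fell (median 0.06). Myocd, the SRF coactivator of smooth and cardiac muscle, had 1613 and 1271 normalized counts in the KO-labelled libraries and 1103 and 947 in the controls. Its groups did not overlap, and the log2 fold change was 0.49 (adjusted p = 0.000108 with the block, 0.35 without it). Hdac4, a deacetylase that represses MEF2, rose by 0.16 (adjusted p = 0.0382). The E-proteins Tcf3, Tcf4 and Tcf12 had values of -0.06, -0.01 and 0.01, and the myocardin-related Mrtfa and Mrtfb had 0.15 and 0.12, none past the test.

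Among contractile genes that SRF is known to regulate, of 20, all tested, 10 rose and 0 fell (median 0.19), while 5.09% of all tested genes were called higher. The list was chosen with earlier results of these data known, so this contrast describes the list and does not test it. Actg2, smooth muscle gamma-actin, rose by 0.77 (adjusted p = 7.01e-05) and had 569.5 and 602 against 311 and 378 normalized counts. Myh11, smooth muscle myosin heavy chain, rose by 0.72 (adjusted p = 8.26e-07) from 2945 and 3136 to 5278 and 4745. Des, the muscle intermediate filament desmin, and Cnn1, calponin, rose by 0.36 and 0.29 (adjusted p = 0.00167 and 0.00452). In DESeq2 with the same block Des and Cnn1 did not pass (adjusted p = 0.0507 and 0.0794), while Actg2 and Myh11 did (0.00174 and 4.10e-15). For these 4 genes both KO-labelled libraries were above both controls. The share of all tested genes with this order was not counted, so the order adds no support. Actin genes are near-identical over their coding parts, and how the counting split their reads is not given in the sources used here.

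The immediate early SRF targets, which respond within minutes to growth factors and handling, were also counted, and of 9, 0 rose and 4 fell, with a median of -0.01. Egr3 fell by 0.34 (adjusted p = 0.0401), Ier2 fell by 0.21 (adjusted p = 0.0122), Egr1 by 0.20 (adjusted p = 0.00345) and Junb by 0.16 (adjusted p = 0.0216). Of the same 9 genes, 7 were called lower in replicate 2. Egr1 had 12551 and 14721 normalized counts in replicate 1 against 7584 and 8560 in replicate 2 (adjusted p = 6.26e-09 between replicates).

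Of 20 ligands and receptors of the BMP, FGF, WNT, Hedgehog and endothelin pathways, 16 were tested, 2 rose and 2 fell (median -0.08). Bmpr2, a type II BMP receptor, rose by 0.25 (adjusted p = 0.00147) and Ece1, which activates endothelins, by 0.17 (adjusted p = 0.0121). Bmp4 fell by 0.34 (adjusted p = 0.0167), and Ednra, the endothelin receptor upstream of Hand2 in the pharyngeal arches, fell by 0.24 (adjusted p = 0.0165). Ednra had 1173 and 1939 against 1490 and 2133 normalized counts, so its groups overlapped. Fgf8 and Shh, ligands of the limb and the heart fields, had 0 reads.

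Of 21 transcription factors of limb, facial and gut mesenchyme, 19 were tested, 1 rose and 3 fell (median -0.06). Msx2 rose by 0.35 (adjusted p = 0.0127), whereas its paralog Msx1 fell by 0.27 (adjusted p = 0.0124), both being homeodomain factors downstream of BMP signalling. Osr2, a factor of joints and palate, fell by 0.53 (adjusted p = 0.000134) and Prrx2 by 0.17 (adjusted p = 0.021). Osr2 had 617 and 978 against 945 and 1336 normalized counts, and its groups overlapped although each pair was lower.

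**Figure D5:**
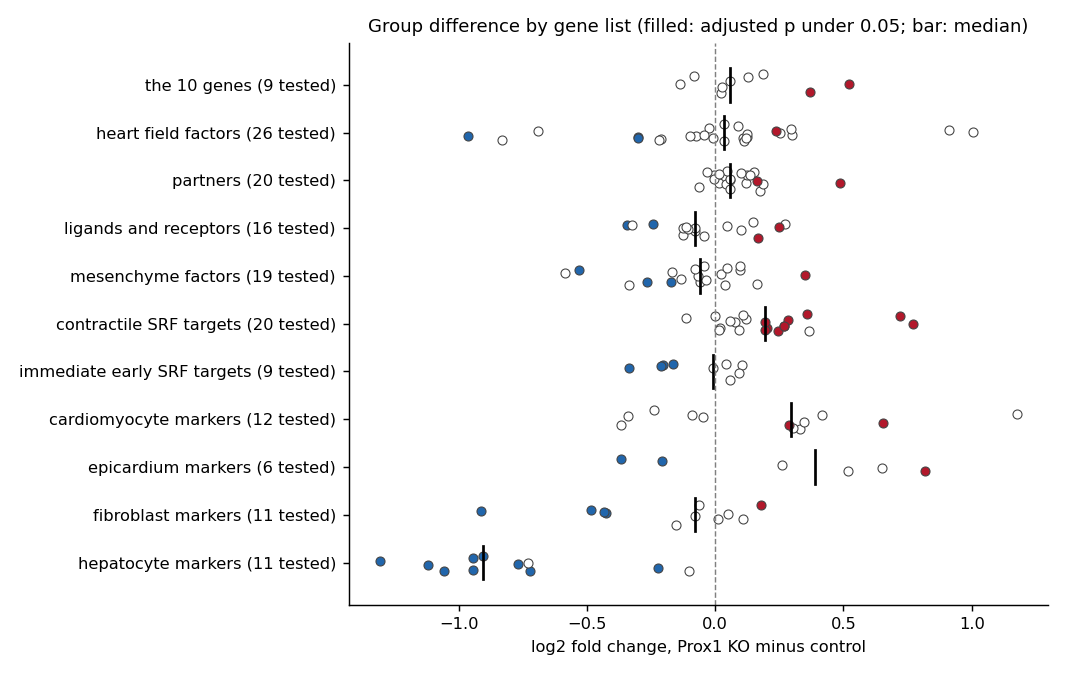
Log2 fold change (x axis, KO-labelled libraries minus control) of each tested gene of the 10 factors and of 10 lists (y axis, with the number tested), filled in red or blue where the adjusted p is under 0.05 and the gene is higher or lower, with a black bar at the median. Contractile SRF targets lie mostly to the right of 0, with 10 of 20 filled, and hepatocyte markers to the left, with 9 of 11 filled.

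Markers of other cell types moved with the groups beside the results above. Of 23 cardiomyocyte markers, 12 were tested, 2 rose and 0 fell (median 0.30), and their summed level was 2208 to 2671 normalized counts in the KO-labelled libraries and 1990 to 2368 in the controls. The genes that rose were Casq2, the calcium store protein calsequestrin (0.66, adjusted p = 0.0476), and Nexn, an actin-binding protein of the Z disc (0.29, adjusted p = 0.00682). Neither passed in DESeq2 with the same block (adjusted p = 0.688 and 0.241). Myl3 had 0 reads, Myh6 and Csrp3 at most 1, and Actc1 and Nppa at most 4, while other genes of the list were present, such as Tnnt2 at 97.9 to 315 normalized counts and Gja5 at 416 to 585.

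Of 9 epicardial markers, 6 were tested, 1 rose and 2 fell. Their median of 0.39 was positive while most calls were lower, and their sum was 10196 to 10211 against 10852 to 13544. Upk1b, a uroplakin of mesothelium, rose by 0.82 (adjusted p = 1.58e-05), while Msln, mesothelin, fell by 0.37 (adjusted p = 0.00428) and Sema3d by 0.21 (adjusted p = 0.0148). Tcf21 had 0 reads. Of 11 fibroblast markers, all tested, 1 rose and 4 fell (median -0.08), with sums of 917006 to 1083555 against 978006 to 1158311. Lum, Pdgfra, Dcn and Col3a1, all of the matrix or its cells, fell, with log2 fold changes of -0.91, -0.48, -0.43 and -0.43 (adjusted p = 5.68e-06, 0.00028, 0.00135 and 0.000177). Of these 11, 6 were also called higher in replicate 2 and 0 lower.

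Of 11 hepatocyte markers, 9 fell and 0 rose (median -0.90). Their sum was 22709 to 25115 in the KO-labelled libraries against 33014 to 37770 in the controls. Alb, albumin, and Fga did not pass (-0.10 and -0.73, adjusted p = 0.158 and 0.0947 in limma). Alb had 3838 and 4766 normalized counts in the KO-labelled libraries and 4197 and 5021 in the controls. Trf, Cdh1, Krt18 and Serpina1a fell most, with log2 fold changes of -1.30, -1.12, -1.06 and -0.94 (adjusted p = 2.86e-07, 2.36e-07, 6.28e-08 and 0.00024). In DESeq2 with the same block Serpina1a did not pass (adjusted p = 0.296). Reads of Trf and Serpina1a can be shared with an overlapping gene model or near-identical family members. Of 9 endothelial markers, 5 were tested, 1 rose (Kdr, 0.67, adjusted p = 4.75e-05) and 2 fell (Egfl7, -0.62, and Erg, -0.43, adjusted p = 0.0335 for both). Their sums were 1270 to 1326 against 1103 to 1110. Kdr was the largest part of each sum, with 938 and 770 normalized counts against 564 and 509. The defining markers Pecam1 (0.98 to 12.5), Cdh5 (3.67 to 8.80), Tie1 (0 to 3.12) and Sox17 (2.93 to 7.34) were too low to be tested. Of 9 macrophage markers, 4 were tested, 1 fell (Cd14, by 0.72, adjusted p = 0.000581) and 0 rose, with sums of 509 to 607 against 652 to 678, and Adgre1 and Fcgr1 had 0 reads.

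Of 8 sympathetic neuron markers, a lineage in which Hand2 is also required, 1 was tested and rose, Gata3 (0.23, adjusted p = 0.0483). Their sums were 1099 to 1167 against 863 to 1082, and Slc18a2 had 0 reads and Dbh at most 1. Of 8 skeletal muscle markers, 1 was tested, Acta1, with a value of 0.46 that did not pass (adjusted p = 0.154). Their sums were 113 in both KO-labelled libraries and 74.5 to 96.4 in the controls, and Myf5 had 0 reads and Myod1 and Myog at most 1. The part of these shifts in the rise of Hand2 and Tbx20 was not tested.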

How the data were processed

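The authors mapped reads to mm10 with STAR and deposited a signal per gene, read counts divided by a size factor for each library from DESeq2; the counting tool, its strand setting and the annotation release are not given in the sources used here. A second deposited table, holding the authors' own comparison (shrunken fold changes with raw and adjusted p-values), was not used. In each library 100% of positive values were whole multiples of 1 step, within 0.001 reads, so reads were recovered, and 0 per-sample columns were left unused. Groups and replicate numbers came from the labels. The main test was limma 3.58.1 (R 4.3.3) with an intensity trend on log2(value + 1), the replicate number as a block, and Benjamini-Hochberg adjustment over 15809 genes. The study's methods use the MEF line as a covariate; whether the replicate numbers stand for lines is not given. Same-numbered libraries deviated together across genes (correlation 0.402, and 0.331 over 15250 autosomal genes), and genes are not independent replicates. An exact permutation test of 2 against 2 that ignores the replicate pairs has 0.333 as its smallest two-sided p. Permuting only within the pairs leaves fewer arrangements, so its smallest p is larger.

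Alternatives were no block, other pseudocounts (0.1 and 10), all genes above 0, a minimum mean of 50, quantile normalization, edgeR 4.0.16 with TMM and DESeq2 1.42.0 on recovered reads, and each library or replicate number left out. DESeq2 was given all 55397 genes and applied its own filter on low counts, whereas edgeR used the 15809 genes of the main test. Counts and adjusted p-values from DESeq2 thus refer to another gene set than those of limma. The scripts were tested on simulated data. Coordinates come from GENCODE vM21 on GRCm38, which matched 55137 of 55397 identifiers. RefSeq promoters were found for 7 of the 10 factors.

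The factors and the gene lists were chosen with earlier results of these data known. Named genes were Prox1, Xist, the 10 factors, their overlapping or divergent neighbours within 5 kb, the 5 profiles nearest to Hand2, the 4 largest called changes of each list and defining markers near 0. The E-proteins, Mrtfa, Mrtfb, Tnnt2, Gja5, Alb and Fga in the text, and genes given for the replicates in the closing section, were picked with their values in view. Some genes of these pathways are not reported here.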

Additional observations from a re-analysis of the deposited data

How the results depend on the processing

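Most limma calls rested on the replicate block. Fits with 1 library left out lack the block, so they cannot show what the number of libraries adds. Against 1798 genes, limma without the replicate block called 0 (1783 at an unadjusted p under 0.05), DESeq2 with the block 483, all of them among the 1798, and leaving out 1 library, which also drops the block, 0 to 118. The 2 called factors became 0 without the block (1 unadjusted) and 0 with any 1 library left out (0 to 3 unadjusted), and the 52 called list entries became 0 without the block, 23 in DESeq2 and 0 to 9 with a library left out. In the leave-one-library fits the lone sample is assumed to vary like the others. For Hand2 the log2 fold change of 0.37 was the same without the block (adjusted p = 0.392) and was 0.21 to 0.53 with a library left out, 0.21 without replicate 1 of the KO-labelled libraries and 0.26 without replicate 2 of the controls; over all 12 alternatives with a test its adjusted p ran from 1.46e-09 to 0.921, and 7 passed. Tbx20 ran from 0.17 to 0.87, with 7 of 12 past the threshold. DESeq2 called 393 genes between the replicates against 1245, and 1 factor against 3. Of 110 values of the 8 tested factors other than Hand2 under alternatives, 98 kept their direction. The remaining 12 all came with a library or a replicate number left out. In this balanced design dropping the block or changing the gene filter leaves limma's fold change unaltered whatever the data, for Hand2 as well. The equal values in these settings therefore say nothing of stability. With a library or a replicate number left out, the values ran from -0.56 to 0.94 for Hand1, -0.13 to 0.38 for Gata6, -0.20 to 0.25 for Tbx5, -0.75 to 0.86 for Isl1 and -0.067 to 0.11 for Srf, so the sign turned in each. With 1 replicate number left out, 1 pair remains, giving a value with no test. The cause of these shifts was not tested.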

Other observations

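Between the replicate numbers, other genes of mesenchyme and heart also differed (chosen after their values were seen, with limma's adjusted p over all genes tested). Barx1, a homeodomain factor of facial and stomach mesenchyme, had 6.43 normalized counts in the control of replicate 1 and 163 in that of replicate 2, and 13.51 and 94.8 in the KO-labelled libraries (mean log2 difference, replicate 2 minus replicate 1, 3.59, adjusted p = 8.92e-06). Pitx1, which marks the hindlimb, had 578 and 627 against 1304 and 1784 (1.34, adjusted p = 2.68e-07), while Tbx5, which marks the forelimb, was lower in replicate 2 (-0.30, adjusted p = 0.0145). Tbx4, also of the hindlimb, had 1826 and 1863 against 1894 and 2062 and did not pass (0.10, adjusted p = 0.321). Meis2, a cofactor in the proximal limb, was higher in replicate 2 (0.73, adjusted p = 4.14e-06). Foxc2 (-0.66, adjusted p = 0.00136) and Tnnt2, cardiac troponin T (-1.17, adjusted p = 0.00073), were lower there. In the group comparison, none of these 7 genes passed.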
